A study of Homo sapiens with 12 samples.

Results

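The genes described here are the replication-dependent histone genes, taken as all protein-coding genes of GENCODE 44 on GRCh38 with the symbols H1-1 to H1-6 or with a numbered symbol that starts with H2AC, H2BC, H3C or H4C. The rule gave 70 of 20046 protein-coding genes, of which 6 encode the linker histone H1, 17 H2A, 19 H2B, 13 H3 and 15 H4. They were examined for positions at which the EGFR chimera was called on chromatin by ChIP-seq. A gene was counted when a peak summit lay inside it or within 1000 bp of either end.

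B2B1 cells are 1 clone of MCF10A-5E, a non-transformed human breast epithelial line, and carry an EGFR chimera with a GluGlu tag together with a rat Erbb2 chimera with an HA tag, so that both receptors are ectopic and the results come from a single clone. AP (AP21967) is a synthetic dimerizer that brings the EGFR and Erbb2 chimeras together as heterodimers. Overlay cultures, in which the medium contained dilute matrigel, received 0.5 µM AP (plus AP) or 0.1% ethanol (minus AP) for the 24 h before harvest on day 7, and each condition had 2 biological replicates. Of 12 libraries, the 4 precipitated through the GluGlu tag of the EGFR chimera were used. The 8 libraries of input or naive IgG were left out and are not analysed here. The files give positions of summits for one protein and no expression, so that the labelled cell type could not be checked against its markers.

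Histone genes of this kind are transcribed mainly in S phase, when newly made DNA has to be packed into nucleosomes. Copies of H2A, H2B, H3 and H4 together form the nucleosome core, and H1 binds the linker DNA at its entry and exit. The genes lack introns and sit in clusters, where their transcription depends on the coactivator NPAT in nuclear structures called histone locus bodies. Their mRNAs usually end in a conserved stem-loop that binds SLBP in place of a poly(A) tail, although a subset is also made as polyadenylated RNA in differentiated cells.

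Of the 70 histone genes, 8 (11.4%) had a summit in at least 1 library, against 1.31% of all protein-coding genes. Every summit at these 8 genes came from a plus AP library. Absence from the minus AP lists was common among all protein-coding genes with a summit. Of 262 with a summit in any list, 35 had one in minus AP replicate 1 and 32 in minus AP replicate 2. Of the 8 histone genes, H2BC21, H2AC20 and H2AC21 lay in the cluster on chromosome 1. The others, H4C2, H2BC4, H2AC6, H1-4 and H2BC5, lay in a cluster on chromosome 6. H2BC21, H2BC4 and H2BC5 encode H2B, H2AC20, H2AC21 and H2AC6 encode H2A, H4C2 encodes H4 and H1-4 encodes a linker histone. The 3 genes on chromosome 1 had summits in both plus AP replicates. Neighbouring histone genes share their windows, and 7 summits accounted for all 8 genes.

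DNA just upstream of a histone gene held 3 of the 7 summits, and these stretches are shown because they hold the best-ranked summits that either plus AP replicate had at a histone gene. Each is the 250 bases before the RefSeq start of the gene on GRCh38.p14, read 5′ to 3′ on the plus strand of the chromosome, which is also the strand of the gene. Capitals mark 4 sequence motifs known from histone promoters, on either strand. They are the CCAAT box (CCAAT, or ATTGG on the other strand), the TATA box (TATAAA, or TTTATA), the octamer bound by POU2F1 (ATTTGCAT, or ATGCAAAT) and the H1 box (AAACACA, or TGTGTTT). No motif overlaps another in these stretches.
H2AC20 (chr1:149886668-149886917): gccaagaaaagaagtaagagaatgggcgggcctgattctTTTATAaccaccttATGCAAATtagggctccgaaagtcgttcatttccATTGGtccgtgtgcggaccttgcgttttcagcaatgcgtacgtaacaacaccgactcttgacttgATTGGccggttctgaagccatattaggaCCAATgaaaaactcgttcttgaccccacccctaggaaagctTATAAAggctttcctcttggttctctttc
H2AC6 (chr6:26123922-26124171): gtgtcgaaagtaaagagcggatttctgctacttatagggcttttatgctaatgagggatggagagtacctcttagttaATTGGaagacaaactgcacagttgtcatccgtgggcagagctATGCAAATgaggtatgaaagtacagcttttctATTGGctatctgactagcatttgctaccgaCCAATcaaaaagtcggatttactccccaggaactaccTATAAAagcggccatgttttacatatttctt
H2BC5 (chr6:26157871-26158120): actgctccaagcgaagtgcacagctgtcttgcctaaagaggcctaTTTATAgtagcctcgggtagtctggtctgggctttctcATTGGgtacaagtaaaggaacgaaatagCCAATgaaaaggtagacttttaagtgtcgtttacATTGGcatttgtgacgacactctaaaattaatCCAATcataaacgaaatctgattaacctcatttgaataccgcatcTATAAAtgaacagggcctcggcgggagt

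The first stretch spans all of the DNA between H2BC21, which is read to the left, and H2AC20, which is read to the right. The summit with the highest rank of all 7 lay at its base 116, counted from 1 at the left end. It was between the octamer with its neighbouring CCAAT box on the left and the other 2 CCAAT boxes on the right. In the H2AC6 stretch, which likewise reaches back to the start of the divergent gene H2BC4, the summit was at base 223, inside the TATA box. In the H2BC5 stretch the summit was at base 55, just downstream of the distal TATA box. These are positions of called summits and do not resolve single motifs. At H2BC21 and H2AC20, the nearest summits of the plus AP replicates lay 164 bp apart. Only that of replicate 2 was between the genes, and that of replicate 1 was 29 bp downstream of the H2AC20 start. Contact of the chimera with a motif was not tested.

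In plus AP replicate 1, the list of 1094 summits held 2 at histone genes. The first lay at chr1:149886947, in the 5′ UTR of H2AC20, 29 bp downstream of its start. Its score, a deposited MACS2 q-value on a −log10 scale, was 2.60 and ranked 917 of 1094, among the weaker summits of that list. The same summit was 265 bp upstream of the start of H2BC21 and inside the window of H2AC21, 522 bp beyond the end of that gene. The second lay at chr6:26124144, in the interval between H2BC4 and H2AC6. It was 28 bp upstream of the canonical start of H2AC6 and 218 bp upstream of that of H2BC4, and its score of 4.54 ranked 627 of 1094.

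In plus AP replicate 2, the list of 297 summits held 5 at histone genes. The summit at chr1:149886783 had a score of 17.0 and ranked 3 of 297. It was 101 bp upstream of H2BC21 and 135 bp upstream of H2AC20, and was thus the only one of the 7 near the top of its list. It lay 164 bp from the summit of replicate 1 in the same pair of genes. A second summit at chr1:149885988, 694 bp into H2BC21, had a score of 1.68 and ranked 292 of 297. It was in the 3′ UTR, 200 bp beyond the stem-loop and 1529 bp before the annotated end of the gene.

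The other 3 summits of plus AP replicate 2 were on chromosome 6. At H2BC5 the summit lay at chr6:26157925, 197 bp upstream of the start, with a score of 5.32 that ranked 91 of 297. This position also counted for H1-4 because it was 810 bp beyond the end of that gene. H1-4 had its own summit at chr6:26156359, in the 5′ UTR 30 bp downstream of the start, with a score of 2.66. H4C2 had 1 at chr6:26027149, in the coding sequence 134 bp downstream of the start, also with a score of 2.66, and both of these ranked 238 of 297. None of these 3 positions had a counterpart in plus AP replicate 1, and the H2BC4 and H2AC6 position had none in replicate 2.

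Measured from the closest histone gene start, the 7 summits were at 28 to 694 bp, with a median of 101 bp, and 6 of 7 were within 300 bp. The genes themselves are short, with a median length of 502.5 bp against 27424 bp for all protein-coding genes, but 17 of the 70 annotated genes span more than 2000 bp. Of the DNA in the merged windows, 11.8% was within 300 bp of a start and 35.1% within 1000 bp. Summits near starts were not particular to histone genes. In plus AP replicate 1, 64 protein-coding genes had a summit, 25 of them within 1000 bp of the start. For the histone genes these numbers were 5 and 4. In plus AP replicate 2 they were 226 and 153 for all protein-coding genes and 6 and 5 for the histone genes. The difference in these shares was not tested. Scores were under 3 for 4 of the 7 summits. At the limit of the window, the farthest summit counted was 930 bp from H2AC20, and the nearest not counted was 1481 bp from H2AC21.

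**Figure D1:**
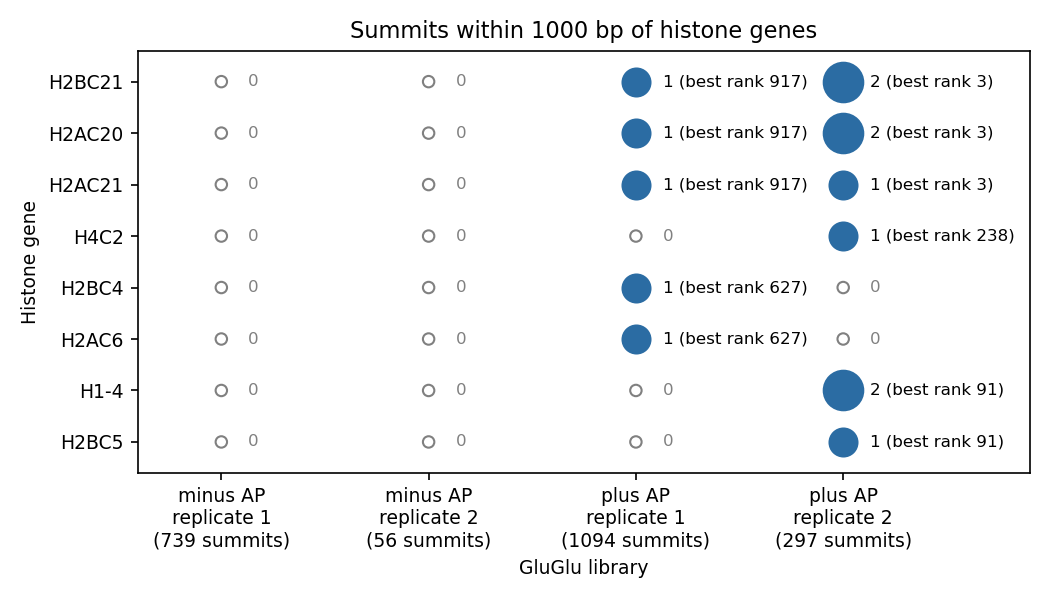
Number of summits within 1000 bp of the 8 histone genes (rows) in each of the 4 GluGlu libraries (columns, with the length of each list). Filled points are scaled to the number of summits and labelled with it and with the best rank in the list, and open points are 0. All points of the minus AP columns are open, and H2BC21, H2AC20 and H2AC21 are filled in both plus AP columns.

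**Figure D2:**
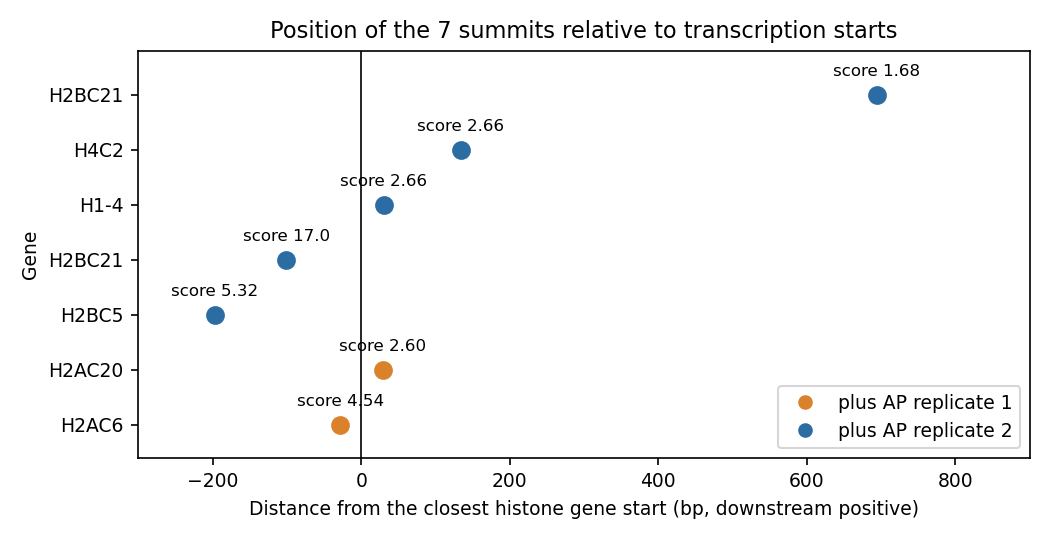
Distance in bp of each of the 7 summits from the closest histone gene start, with downstream positive and the start as a vertical line. Each row is 1 summit, coloured by plus AP replicate and labelled with its score, and 6 of the 7 points lie within 300 bp of the line.

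The comparison of plus AP with minus AP asks whether the positions of the EGFR chimera at histone genes differed when the chimeras were joined. Minus AP replicate 1 had a summit at 0 of 70 histone genes and minus AP replicate 2 at 0 of 70. Plus AP replicate 1 had one at 5 of 70 and plus AP replicate 2 at 6 of 70. The conditions did not overlap, with 0 ± 0 genes in minus AP and 5.5 ± 0.707 in plus AP (SD, n = 2 each). All protein-coding genes did not overlap either, with a summit at 0.175% and 0.16% of them in minus AP and at 0.319% and 1.13% in plus AP. An exact two-sided permutation test over the 4 libraries gave p = 0.333, which is the smallest p that 2 against 2 libraries allow, so that no difference could pass a threshold of 0.05 in this design.

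The lists differed in length, with 739 and 56 summits in minus AP and 1094 and 297 in plus AP, and depth is unknown. In the same replicate number, plus AP lists were 1.48 and 5.30 times as long as minus AP lists. With the highest-scoring 56 summits of each list, the number in the shortest, plus AP replicate 1 had a summit at 0 histone genes and plus AP replicate 2 at 3. The conditions then overlapped, and the mean difference was 1.5 genes (exact permutation p = 1). The part of depth was not tested. Summits at histone genes were 0% of the list in minus AP replicate 1 (95% Wilson interval 0 to 0.517%) and 0% in minus AP replicate 2 (0 to 6.42%). They were 0.183% in plus AP replicate 1 (0.0501 to 0.664%) and 1.68% in plus AP replicate 2 (0.721 to 3.88%). The intervals overlapped in replicate 1, where the number in plus AP rests on 2 summits, and also in replicate 2, where the minus AP list is short. The mean share was 0.933 ± 1.06% in plus AP against 0 ± 0% in minus AP, with the same exact permutation p = 0.333. The lists also differed in how many summits lay within 1000 bp of protein-coding genes. These were 69 of 739 and 43 of 56 in minus AP replicates 1 and 2. In plus AP they were 101 of 1094 and 236 of 297. With summits near protein-coding genes as the denominator, the mean difference was 2.05 percentage points (exact permutation p = 0.333). Ranks and the 56 highest-scoring summits were taken over whole lists. The intervals cover counting error only and treat genes and summits as independent.

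All protein-coding genes give the background for these counts. In plus AP replicate 1, 0.319% of them had a summit within 1000 bp of the gene, against 7.14% of the histone genes (3.09 to 15.7%). In plus AP replicate 2 the shares were 1.13% and 8.57% (3.99 to 17.5%). In minus AP, 0.175% and 0.16% of protein-coding genes had a summit in replicates 1 and 2. At 0 of 70, the interval for the histone genes reached 5.2% in both, so that these lists could not show a share below that of all genes. Over the 4 lists together, 1.31% of protein-coding genes and 11.4% of histone genes (5.91 to 21%) had a summit.

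Both plus AP lists held a summit at 0.18% of protein-coding genes and at 4.29% of histone genes, which are H2BC21, H2AC20 and H2AC21. Both minus AP lists held one at 0.0898% of protein-coding genes and at 0 histone genes. Genes with a summit in both plus AP lists and in neither minus AP list were 0.0748% of all, or 15 genes, and the 3 histone genes were among these 15. These 3 genes overlap in their windows and count as 1 locus. In replicate 1 they rest on the single summit with a score of 2.60 that ranked 917 of 1094. The count of 3 fell to 0 with scores of 3 or more, with the 56 highest-scoring summits of each list, with windows of 0 bp and with each summit given only to its closest gene.

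**Figure D3:**
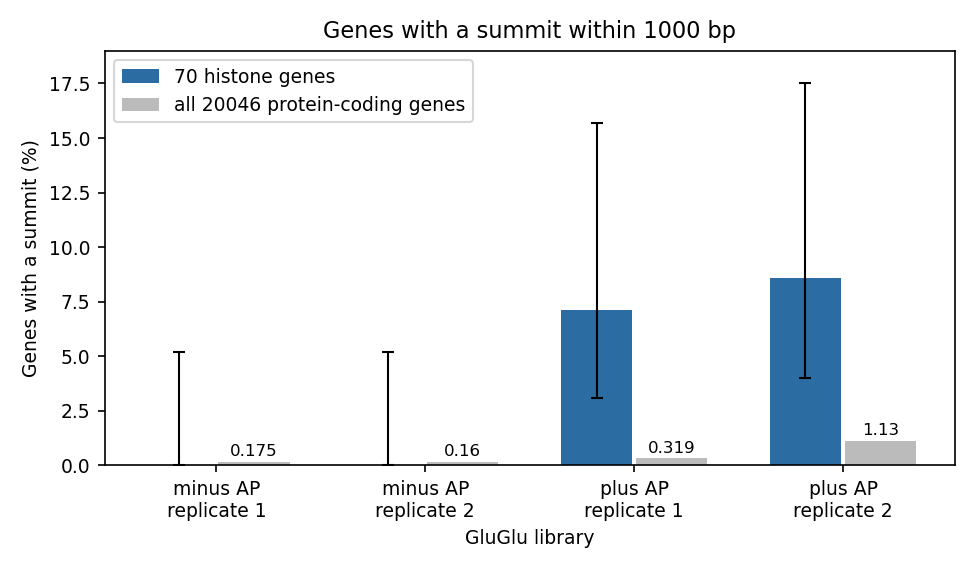
Percentage of genes with a summit within 1000 bp in each GluGlu library, for the 70 histone genes (blue, with 95% Wilson intervals) and all 20046 protein-coding genes (grey, with values). The blue bars are 0 in both minus AP libraries and 7.14% and 8.57% in plus AP replicates 1 and 2, where the grey bars are 0.319% and 1.13%.

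The count by gene depends on the overlap of windows, since histone genes are packed closely. Merging overlapping windows reduced the 70 genes to 38 stretches of DNA, and 4 of 38 held a summit. Of these, 2 were in plus AP replicate 1, 3 in plus AP replicate 2 and 1 in both. The windows of all protein-coding genes merged to 13308 stretches, with 101 and 236 summits in plus AP replicates 1 and 2. The 38 histone stretches had 2 and 5. How many of the 13308 stretches held a summit was not counted. Per Mb of merged window, the histone genes had 0 summits in both minus AP libraries, 6.27 in replicate 1 of plus AP and 15.7 in its replicate 2. All protein-coding genes had 0.0517 and 0.0322 in minus AP replicates 1 and 2, and 0.0757 and 0.177 in plus AP replicates 1 and 2. Windows around starts alone were compared as well, since gene windows differ in length. Within 1000 bp of a start, a summit was found at 0.125% of all protein-coding genes and 5.71% of histone genes in replicate 1 of plus AP, and at 0.763% and 7.14% in its replicate 2. In any list the shares were 0.833% of protein-coding genes and 10% of histone genes (4.93 to 19.2%).

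The summits were not spread over all histone classes. In plus AP replicate 1 they counted for 3 H2A and 2 H2B genes, and in plus AP replicate 2 for 2 H2A, 2 H2B, 1 H1 and 1 H4 gene. In any list, 3 of 17 H2A genes, 3 of 19 H2B genes, 1 of 6 H1 genes, 1 of 15 H4 genes and 0 of 13 H3 genes had a summit. With so few genes in each class these counts are a description, and no difference between classes was tested.

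By position, the histone genes fell into 8 groups when genes within 200 kb of each other were joined. Summits were found in 2 of them. On chromosome 1, the group at chr1:149782689-149887965 holds 11 histone genes, of which 3 had a summit, all at its right end. The 8 genes without a summit there had 0 to 53.2% of their 75-bp sequences found once in the genome, as counted below, against 91.9 to 99.5% for the 3 with one. On chromosome 6, the group at chr6:26017032-26285638 holds 32 genes, of which 5 had a summit. Every summit within these stretches, 3 on chromosome 1 and 4 on chromosome 6, was within 1000 bp of a histone gene.

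The other 6 groups had no summit in any list. They include 16 genes at chr6:27807479-27893891 and 5 genes at chr6:27125897-27147562, which belong to the same large histone cluster of chromosome 6, and H2AC1 with H2BC1 at chr6:25723397-25727345. H2AC25 and H2BC26 at chr1:228434777-228463104, H4C16 on chromosome 12 and H2BC12L on chromosome 21 were also without one.

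Histone genes next to those with a summit were further away than the window. H4C2 lies between H4C1 and H3C2, which were 5.1 kb and 4.44 kb from the nearest summit of any list. H4C15, the closest gene without a summit to the left of H2BC21, was 24.8 kb away. On the other side the next was H2AC25, in a separate distant group that starts at chr1:228434777. It was 153 kb from its nearest summit, which was in minus AP replicate 1. For the remaining genes on chromosome 6, the next genes without a summit in order of start were H1-2, H4C3, H1-6 and H2BC6. They were 28.6, 19.8, 16.0 and 14.1 kb from their nearest summit. H4C3 and H1-6 lie inside the annotated span of H2BC4.

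H2A and H2B genes often lie head to head and share the DNA between their starts. Of the 70 genes, 24 formed 12 such pairs with 193 to 250 bases between the starts, and each pair joined 1 H2A and 1 H2B gene. A summit within 300 bp of the starts was found in 2 of the 12 pairs. H2BC21 and H2AC20, with 235 bases between them, had 1 in each plus AP replicate, and H2BC4 and H2AC6, with 245 bases, had 1 in plus AP replicate 1. Among genes in pairs 4 of 24 had a summit in their window, and among the other genes 4 of 46.

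The promoters were searched for the motifs that are in capitals in the sequences above. RefSeq promoters on GRCh38.p14, from 250 bases before to 50 bases after the start, were matched for 64 of the 70 histone genes, and 27305 promoters of all genes served as background. The CCAAT box was in 84.4% of the histone promoters and in 35.7% of all promoters. The TATA box was in 65.6% and 12%, the octamer in 40.6% and 1.8%, and the H1 box in 14.1% and 5.76%. Among the 8 genes with a summit, the TATA box was present in 8, the CCAAT box in 7, the octamer in 5 and the H1 box in 2. One H1 box match, that of H2AC20, lay 34 bp downstream of the start. For H2AC21, H4C2 and H1-4, no summit lay in the 250 bases before the start. In the divergent pairs H2BC21 with H2AC20 and H2BC4 with H2AC6, the same CCAAT, TATA and octamer sites counted for both genes. The only TATA match of H2BC4, 220 bp upstream of its start, is the one 31 bp upstream of H2AC6. H4C2 was the gene without a CCAAT box, and only 3 of 13 H4 promoters searched had one. The octamer was mostly in H2A (11 of 16) and H2B (14 of 18) promoters, and the H1 box was in all 6 H1 promoters. A match says only that these letters are present in the window.

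The ends of the genes were examined because a summit at H2BC21 lay beyond the stem-loop. Within 300 bases after the end of the coding sequence, 60 of the 70 genes held a stem-loop, 25 to 70 bp after it with a median of 39 bp. It had 4 forms, of which 3 occurred among the genes with a summit. They are given as the 16 bases of the mRNA strand on GRCh38, with the paired stem in capitals and the loop in lower case.
H2BC21 (chr1:149886188-149886203, minus strand): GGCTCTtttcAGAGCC
H2BC4 (chr6:26123472-26123487, minus strand): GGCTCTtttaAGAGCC
H4C2 (chr6:26026901-26026916, minus strand): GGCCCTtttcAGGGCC

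The form of H2BC21 was the most frequent, in 40 genes including H2AC6 and H1-4. The form of H2BC4 was in 9 genes, H2AC21 and H2BC5 among them, and that of H4C2 was in 10. Of the 8 genes with a summit, 7 had a stem-loop, and in H2AC20 these letters were not found in the window searched.

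All 70 canonical transcripts have 1 exon, but GENCODE also lists longer transcripts. Among the genes with a summit those over 2000 bp were 4 of 8, namely H2BC21, H2BC4, H2AC6 and H2BC5. Among the genes without a summit they were 13 of 62. The length of a gene widens its window, and at these 4 genes the summits described above lay near the start except for the one beyond the stem-loop of H2BC21. This division was made after the values had been seen and was not tested.

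Copies of histone genes are alike in sequence, and the authors kept only uniquely mapped reads, so that a read matching several copies would have been left out. All 75-bp sequences, the length of a read, within each canonical transcript and 250 bp either side were therefore counted in the genome. In 42 of 70 genes every such sequence was found once. In 15 genes fewer than 90% were, and in 8 of these fewer than 50%. The lowest share, 0%, was that of H2AC18, H2AC19, H2BC12L, H3C14, H3C15, H4C14 and H4C15, all without a summit. For the 8 genes with a summit the share was 91.9 to 100%, with a median of 99.1%, and the lowest was H2AC20. Within 250 bp of each of the 7 summits, 427 of 427 sequences were found once. The part of repeated sequence in the 62 genes without a summit was not tested, and 47 of these had at least 90% of their sequences found once. The count took single sequences and left out alternate haplotypes. The authors' reads were paired, and the replicate 1 lists of minus AP and plus AP held summits on alternate haplotypes, so that the shares only approximate their mapping.

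**Figure D4:**
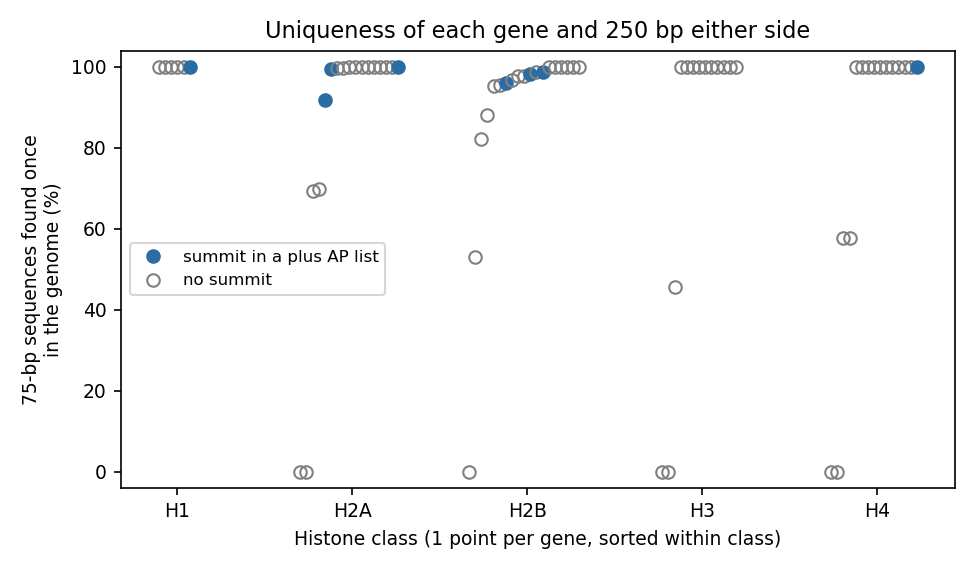
Percentage of 75-bp sequences found once in the genome for each of the 70 histone genes with 250 bp either side, by histone class and sorted within it. Filled points are genes with a summit in a plus AP list and open points are genes with none. All 8 filled points are above 90%, and 15 open points are below it, 7 of them at 0%.

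Histone genes outside the rule and factors that act on histone genes were looked up in the same way. Of 25 other histone genes, most of which encode variants, 1 had a summit. This was H3-3B, a gene for the H3.3 variant, with a summit at chr17:75777227 in plus AP replicate 2, 2552 bp downstream of the start, with a score of 2.66 that ranked 238 of 297. The other 3 lists had 0 of 25. Of 21 factors of histone transcription and histone mRNA processing, among them NPAT and SLBP, 0 had a summit in any list. Of all protein-coding genes, 1.31% had a summit in any list. Lists of 25 and 21 genes could not show a share below that, and no difference was tested.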

How the data were processed

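Chromatin of B2B1 cells immunoprecipitated for the GluGlu tag was sequenced in 4 libraries, 2 minus AP and 2 plus AP. Read pairs of 75 bp were mapped by the authors with Bowtie2 (GRCh38), who then discarded duplicates and reads without a unique match and called peaks with MACS2 in each library against its input. The deposited lists give the position of each summit and a score, the −log10 of the q-value, so that an absent gene is one where no summit passed the authors' threshold of 0.05. Tool versions in the submitters' notes are Bowtie2 2.2.9 and MACS2 2.2.7.1. Reads per library are not in the lists, so that depth is unknown, and scores were used only within a list.

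Genes and canonical transcripts were from GENCODE 44 (Ensembl 110), and computations used Python 3.11.15, numpy 2.4.6, scipy 1.17.1 and numba 0.67.0. Conditions were compared by an exact two-sided permutation test over libraries, and shares have 95% Wilson intervals. Sequences of 75 bp were counted on both strands without alternate haplotypes. The counting was checked on simulated data. The labels call replicates biological but do not say what a shared replicate number means.

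The histone genes and the lists were chosen with earlier results of these data known. Genes were named when a summit lay within 1000 bp, as the nearest gene without one on either side, as lowest or highest in uniqueness, or as a gene with a summit in the lists of other histone genes and factors. The genes of groups without a summit, those of each stem-loop form, NPAT and SLBP were named besides. Of 28 other histone symbols, 25 were matched outside the rule, and the remaining 3 are older symbols of H2AC25, H2BC26 and H4C16.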

Additional observations from a re-analysis of the deposited data

How the results depend on the processing

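Depth is unknown, and each condition had 2 libraries. Over 16 alternatives, the difference between plus AP and minus AP was 1.5 to 6 histone genes and 0.183 to 2.05 percentage points. The value of 2.05 was with summits near protein-coding genes, not the whole list, as the denominator. No minus AP list had a summit near enough to a histone gene to count in any of these alternatives, so that the direction was fixed. With the highest-scoring 56 summits of each list, 3 histone genes had a summit, all in plus AP replicate 2, and the exact permutation p was 1. With windows of 0 bp 4 genes had a summit, and 4 loci had one when overlapping windows were merged, an alternative added after seeing the data. Leaving out 1 library gave 5 to 8 genes, with 5 without plus AP replicate 2, and a share difference of 0.183 points without plus AP replicate 2 and 1.68 points without plus AP replicate 1.

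The count of 3 genes in both plus AP lists was 0 with windows of 0 bp, with each summit given to its closest gene, with scores of 3 or more and with lists of 56 summits, and was 1 locus with merged windows. With the replicate number as a replicate block, the mean differences were 5.5 genes and 0.933 points, each with an exact permutation p = 0.5, the smallest that 2 pairs allow.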
